A study of Caenorhabditis elegans with 15 samples.

Results

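The comparison described here set the mutant strain 3xlnc, which carries mutations in the non-coding RNA genes linc-4, linc-29 and linc-7, against WT, the N2 wild type of Caenorhabditis elegans. The libraries were chosen by their labels, 3 per group, and make up 6 of the 15 libraries of the series. Both groups were whole adult worms grown on solid medium, with RNA extracted with TRIzol, labelled as total RNA and made into libraries with the KAPA mRNA kit. The remaining libraries came from an fbf-2 mutant, an fbf-1 mutant and fbf-1 3xlnc, which joins the fbf-1 mutation to the mutations of the linc genes. All genes with enough counts were tested, 13861 of 46904 identifiers, and differences are given as 3xlnc over WT.

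Long intervening non-coding RNAs (lincRNAs) are transcripts from between protein-coding genes that are not known to be translated. The germline of an adult hermaphrodite runs as a line of cells from stem cells at the distal tip through meiosis to oocytes, and the sperm it uses were made in the last larval stage. FBF-1 and FBF-2 are PUF-family proteins, known for binding the 3′ ends of germline mRNAs and repressing them, which keeps the stem cells and allows the switch from sperm to oocytes. The series' title links these linc genes to condensation of PUF proteins and to germline differentiation, so the comparison asks which transcripts differ when the linc genes are lost in an otherwise wild-type worm.

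Total counts were 9068700 to 20659808 in WT and 17321508 to 25666906 in 3xlnc. WT replicate 1 stood apart: it was the shallowest, its ribosomal RNA genes took 4.63% of its counts where the others of WT had 0.515% and 0.975%, and its correlations with them across genes (0.978 and 0.982) were below the 0.990 between those. Replicate 1 of 3xlnc also had more ribosomal RNA, 2.51% against 0.391% and 0.37%. Markers of the expected tissues were present: the germline genes glh-1 and pgl-1, the oocyte yolk receptor rme-2, the intestinal esterase ges-1 and the body wall myosin gene unc-54 were all between 26.3 and 4540 CPM (counts scaled to the library's total) in every library. Of 9 male markers, 7 had too few counts to test, cwp-1 and cwp-3 were at or near 0, and the list summed to 1.86 to 2.57 CPM in WT and 2.26 to 2.37 in 3xlnc. Whether the 3 libraries of a group are from different cultures is not in the labels, and p-values here cover only the spread among libraries, which may be technical. In whole worms, fewer cells of a type and less RNA per cell cannot be told apart.

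Loss of the linc genes went with more rises than falls. By edgeR's quasi-likelihood test with Benjamini-Hochberg adjustment over all genes tested (adjusted p under 0.05, used throughout), 1304 genes were higher in 3xlnc (9.41% of those tested) and 292 were lower (2.11%). The rises were larger: 812 of them were at least 2-fold and 158 at least 4-fold, with a median of 1.17 on the log2 scale. Of the falls, 49 were at least 2-fold and 171 were under 1.5-fold, with a median of -0.50. The genes that rose were mostly of low abundance, at a median of 2.60 CPM in WT, and the genes that fell were at a median of 46.6 CPM. Together the genes that rose took 2.5% to 2.67% of all counts in the WT libraries and 4.31% to 4.88% in the 3xlnc libraries. Groups did not overlap in 33.6% of genes, with 3xlnc above WT in 23.1% and below in 10.6%, and the median of all genes tested was -0.02. They were apart in 1298 of the 1304 rises and in all 292 falls, so a lack of overlap adds little to a call.

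These counts depended on single libraries, and the falls did so most. Without WT replicate 1, 2439 genes rose and 2325 fell, and these held 1303 of the 1304 rises and all 292 falls. Fits without replicate 1 or 3 of 3xlnc, or without WT replicate 3, called 361, 395 and 375 rises and 34, 37 and 65 falls. The share of calls that were rises was 81.7%, and it was 51.2% without WT replicate 1, 92.4% under upper-quartile scaling and 71.4% with DESeq2.

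**Figure D1:**
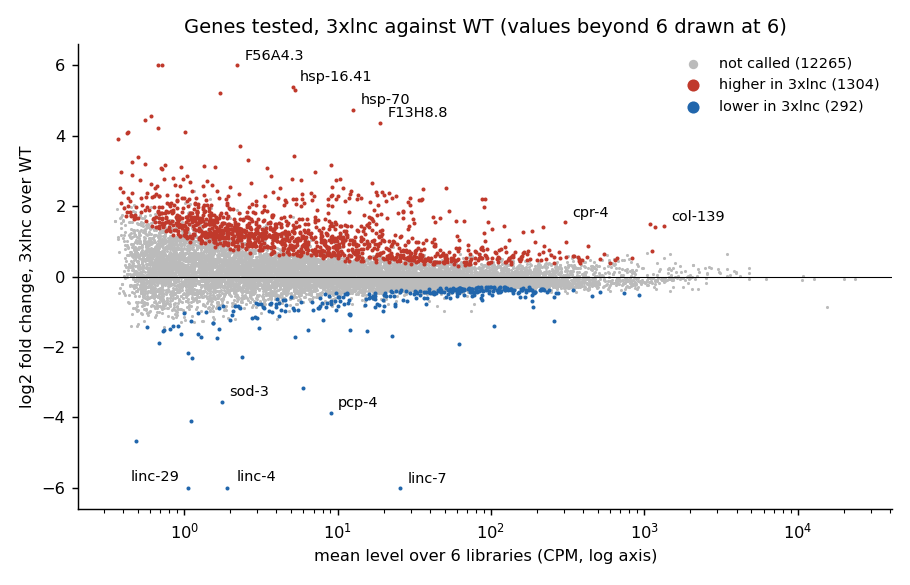
Each point is a gene tested, with its mean level over the 6 libraries (CPM, log axis) and its log2 fold change of 3xlnc over WT; red and blue points are the 1304 genes called higher and the 292 called lower. The rises reach far from 0 at low levels, while most falls lie just below 0 at middle levels; the 6 genes linc-4, linc-7, linc-29, F56A4.3, K02F6.11 and srbc-15, each at 0 counts in every library of 1 group, are drawn at the limit of 6.

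The mutated genes followed the labels. The gene linc-4 (chromosome II, 6268939 to 6269516) was at 7.72, 1.65 and 2.11 CPM in the WT libraries, linc-7 (chromosome X, 16002599 to 16003728) at 77.0, 37.9 and 39.6 CPM, and linc-29 (chromosome IV, 6354024 to 6357243) at 2.87, 1.26 and 2.26 CPM; all lie on the plus strand of WBcel235. Every 3xlnc library had 0 counts for each of them. Against a floor of 3 counts over the mutant group, levels were at least 69.7-fold lower for linc-4, 1080-fold lower for linc-7 and 46.3-fold lower for linc-29. WT replicate 1 had the highest level of all 3 genes, and without it the fitted change of linc-4 went from -9.10 to -8.42, a value that depends on the prior count. In the authors' deposited table, linc-4 and linc-7 are flagged as FBF-2-bound and linc-29 is not. Of 22 other linc genes with enough counts, of 167 annotated, linc-9 was the 1 that fell (log2 -0.67, SE 0.171, adjusted p = 0.0358), a call lost without any 1 library other than WT replicate 1 (adjusted p from 0.069 to 0.163). The genes fbf-1 and fbf-2, looked up outside the rule for named genes, were at 37.8 ± 2.22 and 28.7 ± 3.14 CPM in WT (mean ± SD, n = 3 here and below) and at 39.0 ± 1.58 and 33.0 ± 1.89 CPM in 3xlnc, with overlapping groups and adjusted p of 0.993 and 0.416.

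Beside linc-4, 1 gene rose by more than any other neighbour of the linc genes. F13H8.8 (chromosome II, 6265609 to 6268083, minus strand) lies 856 bp before linc-4 along the chromosome, with its 5′ end nearer to linc-4. It was at 1.65, 1.89 and 1.51 CPM in WT and 34.1, 36.8 and 38.0 CPM in 3xlnc. The groups were far apart and each was tight, and the log2 fold change was 4.37 (SE 0.155, adjusted p = 1.92e-06). F13H8.8 is a protein-coding gene that the authors' deposited table flags as germline-enriched. On the other side, F13H8.2, which starts 848 bp after linc-4 and was looked up for its position, was at 114 ± 13.7 CPM in WT and 107 ± 8.30 in 3xlnc (adjusted p = 0.449).

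Within 50 kb of linc-4, 40 genes are annotated, 20 had enough counts and 4 rose, to be read beside the 9.41% of all genes that rose. The others that rose were F13H8.5, upb-1, which encodes the pyrimidine-degrading enzyme beta-ureidopropionase, and the globin gene glb-10. F13H8.5 was at 1.32, 2.32 and 0.653 CPM in WT and 4.96, 6.3 and 5.38 in 3xlnc (log2 1.87, SE 0.360, adjusted p = 0.0126), and without WT replicate 2 its change was 2.65. Its call was lost without 3xlnc replicate 1 (adjusted p = 0.0529). The changes of upb-1 (log2 0.50, adjusted p = 0.0144) and glb-10 (0.95, adjusted p = 0.0461) were smaller; that of upb-1 was lost without 3xlnc replicate 1 or 3 or WT replicate 3 (adjusted p from 0.0748 to 0.0908), and that of glb-10 without any 1 library other than WT replicate 1 (0.077 to 0.192). The call of glb-10 was also lost with DESeq2 (adjusted p = 0.0859), limma-voom (0.0518), no count filter (0.0534) and the replicate block (0.0967).

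Around linc-29, 14 of 81 annotated genes were tested and the collagen gene bli-6, 19822 bp away, rose from 16.9, 17.4 and 13.8 CPM to 50.7, 37.6 and 52.9 CPM (log2 1.52, SE 0.168, adjusted p = 0.00143), with no overlap between groups. Around linc-7, 9 of 24 were tested and the collagen gene col-186, 47810 bp away, rose from 1.03 ± 0.242 to 2.38 ± 0.309 CPM (log2 1.19, adjusted p = 0.0242); this call was lost without 3xlnc replicate 1 or 3 or WT replicate 3 (adjusted p from 0.0892 to 0.108). Both belong to the collagen family described next. These were 1 rise among 14 and 1 among 9 genes tested, to be read beside the 9.41% of all genes. C09G1.4, a minus-strand gene that overlaps linc-7, was at 5.23 ± 1.07 CPM in WT and 4.79 ± 0.472 in 3xlnc (log2 -0.20, adjusted p = 0.508). No gene within 50 kb of a linc gene was called lower by edgeR, DESeq2 or limma-voom, nor was any lower at an unadjusted p under 0.05; the sources used here do not state the strand setting of the authors' counting.

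**Figure D2:**
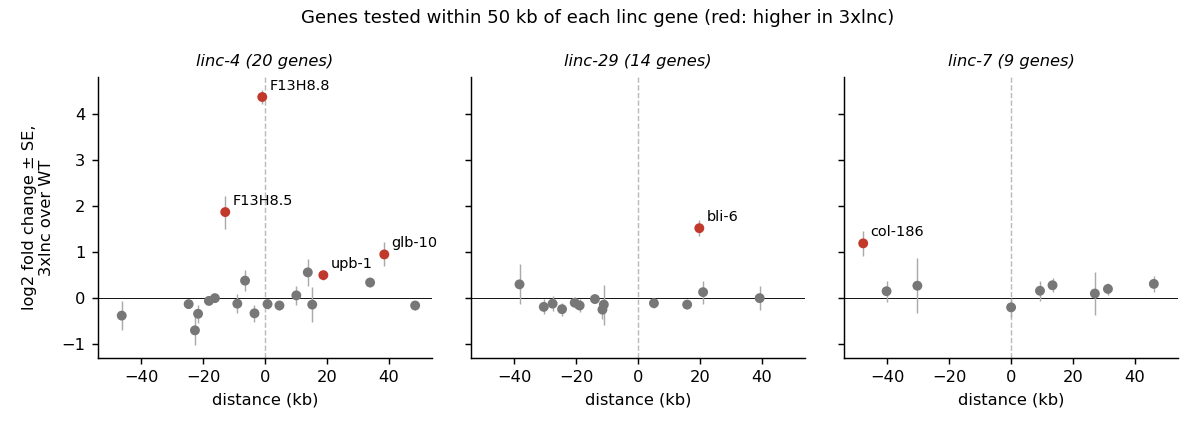
Log2 fold change of 3xlnc over WT with its SE for each gene tested within 50 kb of linc-4, linc-29 and linc-7, against distance to the linc gene along the chromosome (kb, 0 where the genes overlap); red points are called higher. F13H8.8, 856 bp from linc-4, stands at 4.37, and the next largest change is that of F13H8.5 at 1.87.

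Cuticle collagens rose as a large group. These proteins build the worm's outer coat and most are made in bursts at molts. Of 176 annotated collagen genes, 129 were tested, 74 rose (57.4%, against 9.41% of all genes) and 3 fell, and the median log2 fold change was 1.40. Those that rose did so by 0.61 to 2.75 on the log2 scale. The gain was spread over collagens of low and middle abundance: 50 of 78 under 10 CPM in WT and 19 of 25 between 10 and 100 CPM rose, against 5 of 26 over 100 CPM. Collagens named for body shape (dpy, bli, rol, sqt and lon genes and the like) had 8 rises among 20, and those named col had 66 among 109. The summed level of the whole list was 41500, 50200 and 43400 CPM in WT and 56300, 54100 and 57100 CPM in 3xlnc. Without 3xlnc replicate 1 or 3, 42 and 45 collagens rose.

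Single collagens showed the same separation by group. The gene col-48 was at 4.19, 3.73 and 2.96 CPM in WT and 16.2, 13.4 and 14.7 CPM in 3xlnc (log2 2.00, SE 0.176, adjusted p = 0.000416). The gene col-135 was at 42.8, 51.0 and 48.1 CPM in WT and 138, 169 and 126 CPM in 3xlnc (log2 1.56, SE 0.136, adjusted p = 0.000416). In both genes every 3xlnc library was well above every WT library. Among collagens that were abundant in WT, col-139 was at 587, 896 and 659 CPM in WT and 2100, 1730 and 2130 CPM in 3xlnc (log2 1.43, SE 0.201, adjusted p = 0.00376). The similar genes col-129 and col-81 rose by 1.40 and 1.49, from 632 ± 140 to 1730 ± 183 CPM and from 557 ± 132 to 1620 ± 171 CPM. Against this, col-95 fell from 240 ± 29.2 to 134 ± 13.7 CPM (log2 -0.87, adjusted p = 0.00278). None of the 5 hypodermis markers was called by edgeR, and they went both ways. The collagen rol-6 was at 1.21, 1.74 and 0.100 CPM in WT and 4.04, 3.57 and 3.23 CPM in 3xlnc (log2 1.79, adjusted p = 0.063), with no overlap; rol-6 passed with limma-voom, under upper-quartile scaling, with no count filter and without WT replicate 1 or 2 (adjusted p from 8.03e-05 to 0.0476). The adult cuticle collagen col-19 (0.32, adjusted p = 0.193), dpy-7 (0.23, adjusted p = 0.625) and the transcription factor gene elt-3 (0.23, adjusted p = 0.343) had positive values. The transcription factor gene lin-26 had a negative one, at 93.0, 114 and 99.8 CPM in WT and 79.9, 92.2 and 83.7 CPM in 3xlnc (-0.31, adjusted p = 0.117), also with no overlap. Such a lack of overlap was found in 33.6% of all genes tested.

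Other cuticle lists had shares of rises close to the 9.41% of all genes. Of 51 tested hedgehog-related and patched-related genes, many of which act in the epidermis, 6 rose (11.8%) and none fell (median 0.26). Among them the ground-like gene grl-16 was at 7.61, 7.70 and 3.21 CPM in WT and 33.9, 27.5 and 36.8 CPM in 3xlnc (log2 2.39, SE 0.288, adjusted p = 0.00205). Its WT replicate 3 was the lowest library, and the groups did not overlap. Of 42 tested molting and apical matrix genes, 4 rose (9.52%) and none fell (median 0.13). Without WT replicate 1 the rises in these lists were 18 and 6, and without 3xlnc replicate 1, 3xlnc replicate 3 or WT replicate 3 they were 0 to 2.

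Transcripts of genes that act in sperm were mostly higher in 3xlnc. Major sperm proteins form the cytoskeleton that moves the worm's sperm and also signal to oocytes. Of 31 annotated genes, 28 were tested, 25 rose (89.3%, against 9.41% of all genes) and none fell (median 0.97). They are near-copies whose reads may be shared or split by the authors' counting, so single members are uncertain. The gene msp-36 was at 22.4, 17.5 and 17.5 CPM in WT and 44.7, 33.3 and 38.1 CPM in 3xlnc (log2 0.99, SE 0.149, adjusted p = 0.00482), and msp-142 rose from 7.86 ± 1.79 to 16.2 ± 2.39 CPM (log2 1.03, adjusted p = 0.0091). Summed over the list, levels were 337, 251 and 225 CPM in WT and 599, 430 and 517 CPM in 3xlnc, so that replicate 1 was the highest of both groups. The number of rises was 3, 4 and 3 without 3xlnc replicate 1, 3xlnc replicate 3 or WT replicate 3.

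Of 46 other genes that act in sperm, 35 were tested, 23 rose (65.7%, against 9.41% of all genes) and none fell (median 1.08). The sperm-specific genes ssq-3 and ssq-4 were steady within groups: ssq-3 was at 5.51, 5.86 and 5.37 CPM in WT and 16.2, 14.2 and 16.4 CPM in 3xlnc (log2 1.43, SE 0.147, adjusted p = 0.00101), and ssq-4 at 25.9, 23.2 and 23.7 against 58.0, 44.2 and 51.2 CPM (log2 1.04, SE 0.129, adjusted p = 0.00228). The related genes ssq-2 and sss-1 rose by 0.99 and 1.30. For spe-11, a sperm-supplied gene needed by the early embryo, the change was 0.87 (adjusted p = 0.0488), and this call was lost without 3xlnc replicate 1 or 3 or WT replicate 2 or 3 (adjusted p from 0.0825 to 0.183). The count for the list was 11, 10 and 9 without 3xlnc replicate 1, 3xlnc replicate 3 or WT replicate 3. Of 32 tested nematode-specific peptide genes 14 rose (43.8%) and none fell (median 0.88), with 5, 4 and 5 rises in the same 3 fits and 22 without WT replicate 1.

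Among regulators that act before or during sperm formation 3 genes rose, in lists whose shares of rises (5.26% and 8.33%) were below the 9.41% of all genes. The gene fog-3 (chromosome I), whose product promotes the sperm fate, was at 0.992, 0.436 and 0.251 CPM in WT and 3.18, 2.26 and 2.73 CPM in 3xlnc (log2 2.43, SE 0.390, adjusted p = 0.0064). Every 3xlnc library was above the highest WT library, which was replicate 1. The Argonaute genes alg-3 and alg-4, which are known to be needed for normal sperm, rose from 3.50 ± 0.867 to 10.9 ± 2.66 CPM (log2 1.54, adjusted p = 0.00748) and from 3.45 ± 0.558 to 10.8 ± 2.79 CPM (log2 1.60, adjusted p = 0.00521). They were the 2 rises among 24 tested P granule and Argonaute genes, of which none fell (median -0.18). Of 19 sex determination genes 1 rose, fog-3, and 1 fell (median -0.16). Without WT replicate 1, 19 genes of the P granule and Argonaute list and 13 of the sex determination list were called lower.

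The stress genes with the largest rises were those induced by heat. Of 14 annotated inducible heat shock genes 10 were tested, 7 rose (70%, against 9.41% of all genes) and none fell, and the median was 2.61. The small heat shock gene hsp-16.41 was at 0.331, 0.194 and 0.201 CPM in WT and 17.0, 6.06 and 6.86 CPM in 3xlnc (log2 5.39, SE 0.600, adjusted p = 0.00147). The inducible chaperone gene hsp-70 was at 0.882, 0.678 and 1.10 CPM in WT and 38.8, 17.0 and 17.3 CPM in 3xlnc (log2 4.73, SE 0.430, adjusted p = 0.000501). In both, 3xlnc replicate 1 was the highest library, and all 3xlnc libraries were far above WT. Without that library the changes were 4.74 for hsp-16.41 and 4.56 for the related small heat shock gene hsp-16.2. The change of hsp-16.2 was 5.29 with all libraries (adjusted p = 0.00289) and 5.95 without WT replicate 1. The count for the list was 4 without WT replicate 3. Replicate 1 of 3xlnc was also the 1 with more ribosomal RNA in its group, and the part of this in the levels was not tested.

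Chaperones that are always present had few calls. Of 45 constitutive chaperone genes none rose and 2 fell (4.44%, against 2.11% of all genes), with a median of -0.01. Of 33 proteasome genes none rose or fell by edgeR (median -0.20), while 12 were called lower without WT replicate 1. The small heat shock gene sip-1 was at 1080 ± 115 CPM in WT and 769 ± 27.5 in 3xlnc (log2 -0.53, adjusted p = 0.0348); this call was lost without any 1 library other than WT replicate 1 (adjusted p from 0.083 to 0.179) and under upper-quartile scaling (0.0662). Among 14 genes for superoxide dismutases, catalases, metallothioneins and ferritins, none rose and 2 fell (14.3%). The mitochondrial superoxide dismutase gene sod-3 was at 3.64, 3.19 and 2.96 CPM in WT and 0.289, 0.277 and 0.273 CPM in 3xlnc (log2 -3.55, SE 0.273, adjusted p = 0.000184), with both groups narrow and wide apart. The metallothionein gene mtl-1 fell from 1.10 ± 0.155 to 0.389 ± 0.0724 CPM (log2 -1.52, adjusted p = 0.0201), a call lost without WT replicate 3 or any 1 library of 3xlnc (adjusted p from 0.0604 to 0.0968).

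**Figure D3:**
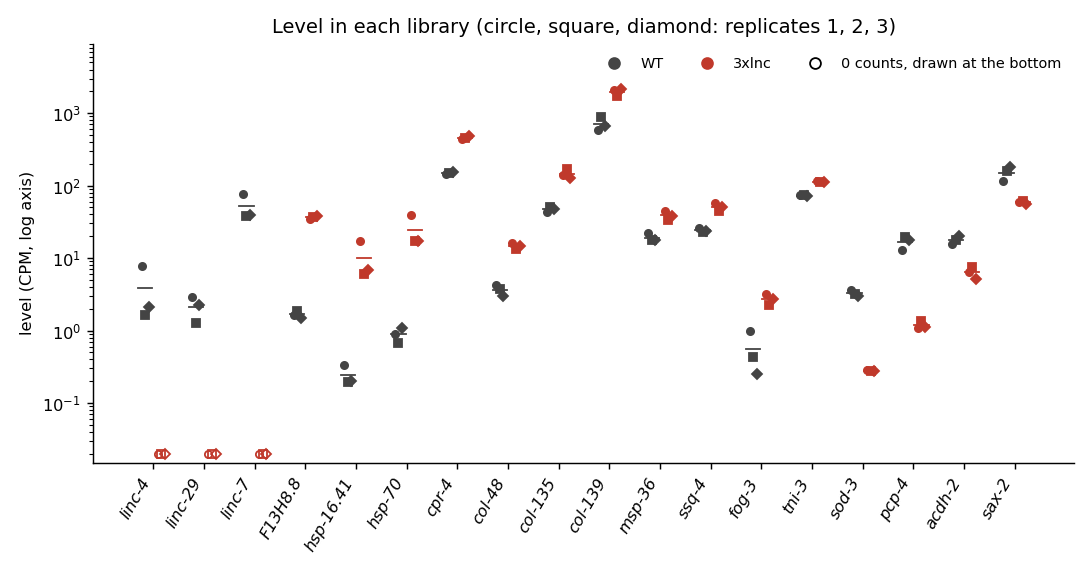
Level of 18 genes in each library (CPM, log axis), WT in grey and 3xlnc in red, with lines at group means; open symbols at the bottom mark 0 counts, as linc-4, linc-29 and linc-7 had in every 3xlnc library. For each gene shown the groups do not overlap, as for F13H8.8 (1.51 to 1.89 CPM in WT, 34.1 to 38.0 in 3xlnc) and sod-3 (2.96 to 3.64 in WT, 0.273 to 0.289 in 3xlnc).

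Muscle genes shifted upward by a small amount. Of 31 contractile and structural genes 9 rose (29%, against 9.41% of all genes) and none fell, with a median of 0.47. The troponin I gene tni-3 was at 73.2, 73.5 and 71.6 CPM in WT and 115, 113 and 111 CPM in 3xlnc (log2 0.59, SE 0.088, adjusted p = 0.00454), and the troponin T gene tnt-4 rose from 29.7 ± 3.71 to 56.0 ± 2.24 CPM (log2 0.87, adjusted p = 0.00482). The body wall myosin gene unc-54 was at 1830, 3150 and 2990 CPM in WT and 4540, 4020 and 4200 CPM in 3xlnc, with WT replicate 1 the lowest, and was not called (log2 0.63, adjusted p = 0.102). The number of rises in the list was 21 without WT replicate 1 and 2 without 3xlnc replicate 1, 3xlnc replicate 3 or WT replicate 3.

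Of 8 tested pharynx markers 4 rose (50%) and 1 fell (12.5%), against 9.41% and 2.11% of all genes. In this list 1 rose without 3xlnc replicate 1, 3xlnc replicate 3 or WT replicate 3. The pharyngeal myosin genes myo-1 and myo-2 rose by 0.88 (adjusted p = 0.0224) and 0.98 (adjusted p = 0.0139), again with WT replicate 1 the lowest library; these calls were lost without 3xlnc replicate 1 or 3 or WT replicate 3, and that of myo-1 also without 3xlnc replicate 2 (adjusted p from 0.0502 to 0.111 for myo-1 and 0.0599 to 0.0722 for myo-2). The pharyngeal gene phat-4 was at 8.05, 9.15 and 6.22 CPM in WT and 30.1, 21.9 and 23.6 CPM in 3xlnc (log2 1.65, SE 0.200, adjusted p = 0.00217). Of 21 genes of neuronal function none was called (median 0.27, 0 calls of either direction by edgeR). Of 114 neuropeptide and insulin-like genes 2 rose and 2 fell (1.75% each way, below both shares of all genes). Without WT replicate 1, 6 and 19 genes of the neuronal and neuropeptide lists were called higher.

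In the intestine, single digestive genes rose clearly while the lists as a whole were mixed. The cathepsin B-like protease gene cpr-4 was at 146, 151 and 155 CPM in WT and 433, 454 and 481 CPM in 3xlnc (log2 1.55, SE 0.101, adjusted p = 0.000102). The aspartyl protease gene asp-8 was at 14.8, 12.1 and 11.5 CPM in WT and 41.6, 39.5 and 41.4 CPM in 3xlnc (log2 1.65, SE 0.120, adjusted p = 0.000159). Both changes exceeded the spread of either group many times over. With asp-14 (log2 0.74, adjusted p = 0.00304) they were the 3 rises among 18 tested proteases of the intestine and lysosome, of which none fell. That share was 16.7%, against 9.41% of all genes. Of 8 intestine markers 3 rose (37.5%) and none fell. Those that rose included ifb-2 (0.69, adjusted p = 0.0104) and vha-6 (0.56, adjusted p = 0.0266). The esterase gene ges-1 (0.02, adjusted p = 0.901) and the GATA factor gene elt-2 (-0.40, adjusted p = 0.138) were not called. The calls of ifb-2 and vha-6 were lost without 3xlnc replicate 1 or 3 or WT replicate 3, and that of vha-6 also without 3xlnc replicate 2 (adjusted p from 0.0541 to 0.0608 and from 0.0722 to 0.13).

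Fat metabolism genes went both ways. Of 4 tested lysosomal lipases, which release fatty acids from stored fat, lipl-5 rose from 204 ± 16.8 to 412 ± 22.3 CPM (log2 0.98, adjusted p = 0.00117) and lipl-1 fell from 25.8 ± 2.11 to 14.6 ± 2.08 CPM (log2 -0.85, adjusted p = 0.00667). Of 53 genes of fatty acid activation and beta-oxidation 12 rose (22.6%) and 3 fell (5.66%), against 9.41% and 2.11% of all genes (median 0.06). The list had 5 rises without 3xlnc replicate 1, 3xlnc replicate 3 or WT replicate 3. The acyl-CoA dehydrogenase gene acdh-2 was at 15.7, 17.5 and 20.1 CPM in WT and 6.47, 7.53 and 5.22 CPM in 3xlnc (log2 -1.52, SE 0.178, adjusted p = 0.0019). Its relative acdh-1 fell by 0.55 on the log2 scale (adjusted p = 0.0147), a call lost without 3xlnc replicate 1 or 3 (adjusted p = 0.0724 and 0.0948 at the extremes), while acdh-5 and acdh-8, both flagged germline-enriched, rose by 1.63 and 1.06. Of 6 yolk protein genes none was called by edgeR (median -0.07, groups overlapping in each).

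Defence and detoxification lists differed in how many members rose, set against the 9.41% of all genes that rose and the 2.11% that fell. Of 94 tested C-type lectins, a family that includes many immune effectors, 20 rose (21.3%) and 5 fell (5.32%; median 0.30), with clec-48 going from 26.7 ± 1.35 to 47.2 ± 2.59 CPM (log2 0.78, adjusted p = 0.00439) and clec-123 rising by 1.25 (adjusted p = 0.00753). Of those that fell, named after their values were seen, clec-266 went from 29.8 ± 5.37 to 17.5 ± 2.15 CPM (log2 -0.79, adjusted p = 0.00864), a call lost without 3xlnc replicate 1 or 3 (0.0528 and 0.0554 at the extremes). The fall of clec-197 was the largest fitted in the list but rests on few reads, at 1.21, 0.532 and 1.05 CPM in WT and 0.115, 0 and 0 CPM in 3xlnc. Of 56 lysozyme and antimicrobial peptide genes 10 rose (17.9%) and 4 fell (7.14%), with fipr-7 rising from 0.384 ± 0.182 to 2.68 ± 0.924 CPM (log2 2.60, adjusted p = 0.00706). The immune-linked dod and irg genes had 6 rises (42.9%) and 1 fall among 14. Among them dod-24 was at 22.6, 17.8 and 17.1 CPM in WT and 42.3, 39.4 and 43.1 CPM in 3xlnc (log2 1.09, SE 0.121, adjusted p = 0.00144), and dod-22 and dod-19 rose by 2.20 and 0.78. In the pals family, which includes regulators of the response to intracellular pathogens, 1 of 13 rose (7.69%), pals-32 (log2 3.16, adjusted p = 0.00287). Of 57 UDP-glucuronosyltransferases, which conjugate foreign compounds, 13 rose (22.8%) and 2 fell (3.51%), with ugt-4 and ugt-19 rising by 1.37 and 0.97, and of 38 glutathione transferases 4 rose (10.5%) and none fell, with gst-38 rising by 1.66. Cytochrome P450 genes had 2 rises and 2 falls among 50 (4% each way). The counts leaned on single libraries: without 3xlnc replicate 1, 3xlnc replicate 3 or WT replicate 3 there were 3 or 4 rises among the lectins, 1 to 3 among lysozymes and peptides, 3 among dod and irg genes and 3 to 5 among UDP-glucuronosyltransferases, and without WT replicate 1 there were 33, 36, 8 and 18.

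**Figure D4:**
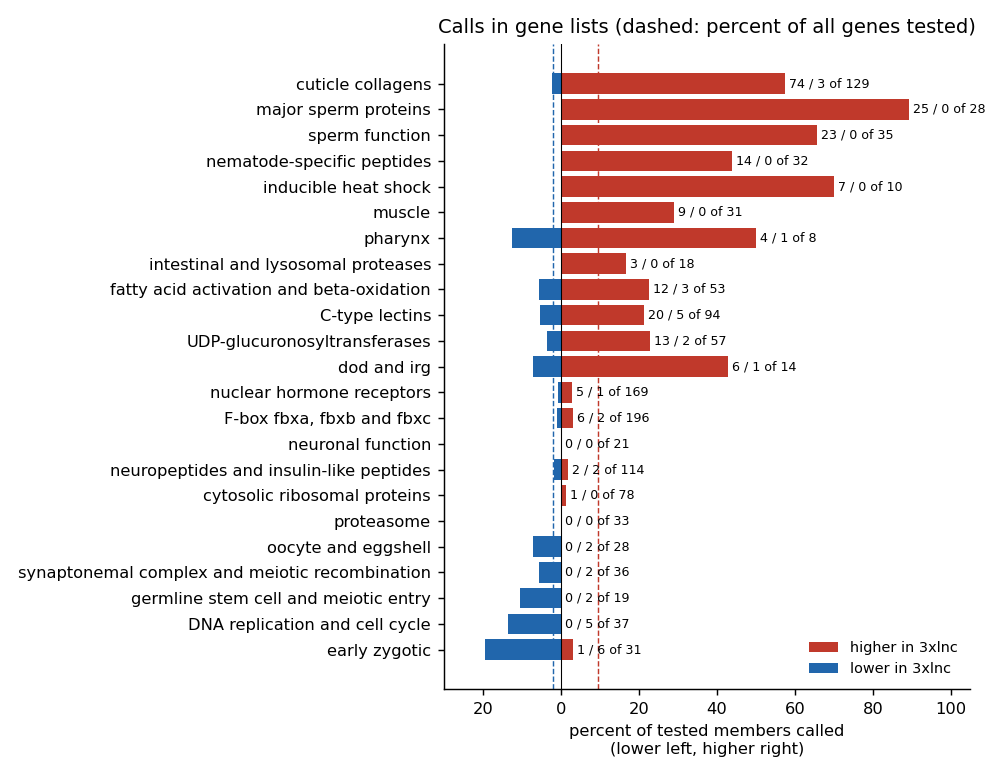
Percent of the tested members of 23 of the 46 gene lists called higher (red, to the right) or lower (blue, to the left) in 3xlnc, with the number higher, the number lower and the number tested; dashed lines mark the 9.41% and 2.11% over all genes. Major sperm proteins (25 of 28), inducible heat shock genes (7 of 10), sperm function genes (23 of 35) and collagens (74 of 129) reach furthest to the right, and early zygotic genes (6 of 31) reach furthest to the left among the lists drawn.

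Outside these lists, the largest rises among genes with a mean of at least 50 counts came from genes that were near silent in WT. On chromosome V, F56A4.3 (2453414 to 2456147) was without a count in WT, 0 in each library, and was at 3.46, 4.60 and 5.26 CPM in 3xlnc, at least 72.4-fold higher against a floor of 3 counts over the WT group. Among non-coding genes, taken with no such minimum, the annotated small nucleolar RNA gene K02F6.11 also had 0 counts in WT and stood at 1.62, 1.23 and 1.21 CPM in 3xlnc, at least 21.0-fold higher. The arginine kinase gene argk-1, whose product buffers cellular energy, was at 1.32, 2.08 and 1.66 CPM in WT and 15.5, 11.4 and 22.1 CPM in 3xlnc (log2 3.17, SE 0.291, adjusted p = 0.000509). All 3xlnc libraries lay far above WT, with replicate 3 the highest. Others in this class were Y102A5C.36 (3.41), plep-1 (3.09), lron-14 (2.97), R08F11.7 (3.32, and 4.24 without WT replicate 3) and C09B9.7 (3.70, and 4.93 without WT replicate 2). The non-coding gene tts-2 rose from 2.15 ± 0.429 to 5.46 ± 0.478 CPM (log2 1.31, adjusted p = 0.0064).

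Apart from the linc genes, the largest falls among genes with a mean of at least 50 counts were in scattered genes. The gene pcp-4 (chromosome V, 19822734 to 19831011), which encodes a prolyl carboxypeptidase-like protein, was at 16.9 ± 3.42 CPM in WT, where replicate 1 was the lowest at 13.0, and at 1.10, 1.35 and 1.13 CPM in 3xlnc (log2 -3.87, SE 0.230, adjusted p = 8.52e-05). C16D9.5 was at 13.3, 8.42 and 10.6 CPM in WT and 0.808, 1.31 and 1.44 CPM in 3xlnc (log2 -3.17, SE 0.230, adjusted p = 0.000159). In neither gene did the groups come near each other. T05A12.4 fell from 97.9 ± 11.4 to 26.7 ± 1.96 CPM (log2 -1.92), and Y48E1B.8 from 34.3 ± 2.60 to 10.9 ± 1.06 CPM (log2 -1.69). The gene sax-2, a Furry-family gene that acts in neurite growth, was at 116, 158 and 180 CPM in WT and 59.8, 61.3 and 55.0 CPM in 3xlnc (log2 -1.41, SE 0.163, adjusted p = 0.00185). F46F2.3 fell by 1.26 on the log2 scale, F09C8.1 by 1.55 and C09B8.4 by 1.46, and the folate transporter gene folt-2 by 0.57, which was lost without 3xlnc replicate 1 or WT replicate 3 (adjusted p = 0.0581 and 0.0655 at the extremes).

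Genes of the mitotic and meiotic germline were slightly lower, mostly without passing the test, and the number called turned on WT replicate 1. Of 19 genes of stem cell maintenance and meiotic entry 2 fell (10.5%, against 2.11% of all genes) and none rose, with a median of -0.24. Without WT replicate 1, 16 of them were called lower, and without any other single library 0. The stem cell gene lst-1, which acts with FBF proteins, was at 119, 124 and 123 CPM in WT and 90.4, 103 and 94.3 CPM in 3xlnc (log2 -0.39, SE 0.0918, adjusted p = 0.0273). The PUF gene puf-8 was at 158, 147 and 146 CPM in WT and 118, 129 and 118 CPM in 3xlnc (log2 -0.34, SE 0.086, adjusted p = 0.0327). In both, every 3xlnc library was below every WT library, and both calls were lost without any 1 library other than WT replicate 1 (adjusted p from 0.0665 to 0.155 and from 0.0795 to 0.192) and under upper-quartile scaling (0.0643 for lst-1 and 0.0828 for puf-8), and that of puf-8 with no count filter (0.0628). Of 37 DNA replication and cell cycle genes 5 fell (13.5%) and none rose (median -0.29). In 23 of the 37 all 3xlnc libraries were below all WT libraries, against 10.6% of all genes. The falls included orc-2, a subunit of the origin recognition complex, and cdk-1, the kinase that drives entry into division (both log2 -0.37, adjusted p = 0.0238 and 0.0333). The list's count was 29 without WT replicate 1, 1 without WT replicate 2 and 0 without any of the other libraries, 13 with DESeq2 and 0 under upper-quartile scaling.

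Oocyte and embryo genes were also lower at the median. Of 28 oocyte and eggshell genes 2 fell (7.14%, against 2.11% of all genes) and none rose (median -0.31). Among those that fell was egg-3, needed for the switch from egg to embryo (log2 -0.34, adjusted p = 0.0379). Its call was lost without any 1 library other than WT replicate 1 (adjusted p from 0.11 to 0.196), under upper-quartile scaling (0.108) and with no count filter (0.0768). The list had 25 falls without WT replicate 1, 0 without any other single library, 10 with DESeq2 and 0 under upper-quartile scaling. Of 36 genes of the synaptonemal complex and meiotic recombination 2 fell (5.56%) and none rose (median -0.22). That list had 16 falls without WT replicate 1, 2 without WT replicate 2, 0 without any of the other libraries, 4 with DESeq2 and 0 under upper-quartile scaling. Of 42 genes transcribed early in the embryo 31 were tested, 6 fell (19.4%) and 1 rose (3.23%), with a median of -0.51. Among these sdz-28 was at 10.7, 8.95 and 9.79 CPM in WT and 5.08, 6.34 and 5.26 CPM in 3xlnc (log2 -0.85, SE 0.147, adjusted p = 0.00864), and the very early transcripts vet-1, vet-2 and vet-6 fell by 0.75, 0.61 and 0.63. Groups did not overlap in any of these genes, as in all 292 falls. The calls of all 4 were lost without 3xlnc replicate 1 or 3, and those of the vet genes also without WT replicate 3 (adjusted p from 0.051 to 0.105), so that the list had 0, 0 and 1 falls in those fits. None of the 5 somatic gonad markers was called by edgeR. The sheath markers inx-8 and lim-7 were at -0.09 and -0.10 (adjusted p = 0.493 and 0.679), and inx-9, ceh-18 and fkh-6 were at 0.10, 0.34 and 0.47 (adjusted p = 0.588, 0.236 and 0.159), the last 2 of these with no overlap between groups, as in 33.6% of all genes tested.

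The authors' flags divided the genes in a similar way. Of 2696 tested genes flagged germline-enriched in the authors' deposited table, 376 rose (13.9%) and 117 fell (4.34%), against 9.41% and 2.11% of all genes. Yet the median of the flagged genes was -0.17, below the -0.02 of all genes. The 376 that rose were of low abundance, at a median of 1.46 CPM in WT; 47 of them belong to the sperm protein, sperm function or nematode-specific peptide lists and 255 have no gene-class name. Of 1847 tested genes flagged FBF-2-bound, 11 rose (0.596%) and 79 fell (4.28%), with a median of -0.18. All 3xlnc libraries were below all WT libraries in 22.4% of them, against 10.6% of all genes. Of the 742 genes with both flags 2 rose (0.27%) and 57 fell (7.68%). Of the 1954 flagged germline-enriched only, 374 rose (19.1%) and 60 fell (3.07%). Of the 1105 flagged FBF-2-bound only, 9 rose (0.814%) and 22 fell (1.99%). The mutated genes linc-4 and linc-7 are among these 22 falls, and so among the 79. The sources used here do not define the flags. The 79 falls became 167 with DESeq2, 25 under upper-quartile scaling, 909 without WT replicate 1, and 5, 17, 5, 40 and 12 without 3xlnc replicates 1, 2 and 3 and WT replicates 2 and 3.

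Large families of regulators and housekeeping genes held few calls, set against the 9.41% of all genes that rose and the 2.11% that fell. Of 169 nuclear hormone receptor genes 5 rose (2.96%) and 1 fell (0.592%). Of 196 F-box genes 6 rose (3.06%) and 2 fell (1.02%), with 16 rises in each of these 2 lists without WT replicate 1. Of 78 cytosolic ribosomal protein genes 1 rose (1.28%). Linker histones, a small list, had a higher share of falls, with 2 among 9 (22.2%, median -0.38). They had 5 falls without WT replicate 1 and 0 without 3xlnc replicate 1, 3xlnc replicate 3 or WT replicate 3. Rises were found on every nuclear chromosome, from 6.12% of genes tested on chromosome III to 12.5% on chromosome IV, which holds linc-29; chromosomes II and X, which hold linc-4 and linc-7, had 9.69% and 8.19%. Falls were 1.93% to 2.54% of genes on each nuclear chromosome. No gene of the 14 tested on the mitochondrial genome was called by edgeR. Of the lists above with no call in a direction, between 0 and 11 members passed an unadjusted p under 0.05 in that direction, most in the proteasome (11 lower) and neuronal lists (8 higher). DESeq2 called members in those directions in 5 of these lists, 1 chaperone, 3 neuronal genes, 2 proteasome genes, 1 molting gene and 2 nematode-specific peptide genes, and limma-voom called 1 hypodermis marker.

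The same mutations were also made in the fbf-1 mutant, and the difference between both effects was tested over 12 libraries. Of 14772 genes tested the effect differed in 916 (6.2%), more positive in the wild-type background in 541 and more negative in 375. In the fbf-1 background 822 genes rose (5.56%) and 419 fell (2.84%), and without single libraries of that background 357 to 775 rose and 199 to 324 fell. The fbf-1 and fbf-1 3xlnc libraries are labelled polyA RNA and the WT and 3xlnc libraries total RNA, so background and RNA label cannot be told apart in this difference. Of the 1304 rises 331 also rose in the fbf-1 background (25.4% of them, and 40.3% of the rises there), 69 fell there, and for 330 the difference passed. Without single libraries of that background 116 to 374 of them rose and 42 to 119 fell there. Of the 292 falls 19 also fell there, and for 136 the difference passed. Without WT replicate 1, 1193 genes had a positive and 1570 a negative difference.

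Major sperm protein and sperm function genes rose in both backgrounds, but in the fbf-1 background 1 library carried much of the rise. The 3 fbf-1 3xlnc libraries, which carry no replicate number that could be matched, summed to 585, 248 and 259 CPM over the major sperm proteins, against 183, 154 and 110 CPM in fbf-1. The gene msp-36 was at 39.6, 17.0 and 17.8 CPM and ssq-4 at 60.4, 20.6 and 23.1 CPM in these libraries, the first of them far above the others. All 25 major sperm protein genes that rose here also rose in the fbf-1 background, where 27 of 28 did, and the difference passed for none of the 28 by edgeR or DESeq2, with 1 and 2 at an unadjusted p under 0.05. Without the high library 13 of the 28 rose there (median 0.82, against 1.31 with it), and without fbf-1 replicate 2 or 3, 13 and 4 did. Of the 23 sperm function genes 13 also rose there, with a median of 1.09 against 1.20 here, and no difference passed in that list by either tool, with 2 of 38 tested members at an unadjusted p under 0.05 in each. Without the high library 4 of the 23 rose there (median 0.56) and the difference passed for 5, and without fbf-1 replicate 2 or 3, 4 and 1 rose. The nematode-specific peptide genes did not follow as a list. Of 32 tested, 7 rose and 4 fell there (median -0.19), and the difference passed for 5, all of them positive. F13H8.8 rose from 2.07 to 63.7 CPM there (log2 4.95), F56A4.3 had 0 counts in the fbf-1 libraries and 4.18 CPM in fbf-1 3xlnc, and pcp-4 fell from 10.4 to 0.827 CPM (log2 -3.63), all in the same direction as here. The values of F13H8.8 and pcp-4 without any single library of this background lay from 4.89 to 5.04 and from -3.74 to -3.55. The collagens col-139, col-129 and col-81 rose there as well, by 1.32, 1.40 and 1.46, with the same library high: col-139 was at 576, 231 and 236 CPM in fbf-1 3xlnc and at 162, 153 and 104 CPM in fbf-1. Without that library they rose by 0.78, 0.87 and 0.91, and their calls were lost without fbf-1 replicate 3 (adjusted p from 0.0581 to 0.0871).

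Collagens at large and heat shock genes did not follow. The 74 collagens that rose here had a median of -0.55 in the fbf-1 background, where 7 of them rose and 3 fell, and for 36 of them the difference passed. Without the high fbf-1 3xlnc library the median was -2.08, 4 rose, 42 fell and the difference passed for 64, and without any other single library of this background it passed for 14 to 29. The gene col-48 went from 5.77 CPM in fbf-1 to 2.63 in fbf-1 3xlnc (difference of log2 changes 3.10, adjusted p = 0.00119), and col-135 at 123 and 119 CPM (difference 1.57, adjusted p = 5.87e-05). Of the 7 heat shock genes that rose here, 5 fell in the fbf-1 background, and for 6 the difference passed. The gene hsp-70 went from 2.28 CPM in fbf-1 to 0.416 in fbf-1 3xlnc (difference 7.13, adjusted p = 8.93e-06), and hsp-16.41 at 3.02 and 0.0461 CPM (difference 11.25, adjusted p = 4.86e-06). In the fbf-1 libraries these genes were above their WT levels of 0.888 and 0.242 CPM. That contrast was not tested, and fbf-1 loss and RNA label cannot be told apart in it. The genes cpr-4 and asp-8 had about equal levels in fbf-1 and fbf-1 3xlnc, at 101 and 106 CPM and at 12.2 and 12.5 CPM (differences 1.47 and 1.60, adjusted p = 2.11e-05 for both), and fog-3 went from 7.13 to 5.40 CPM (difference 2.81, adjusted p = 0.000355).

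**Figure D5:**
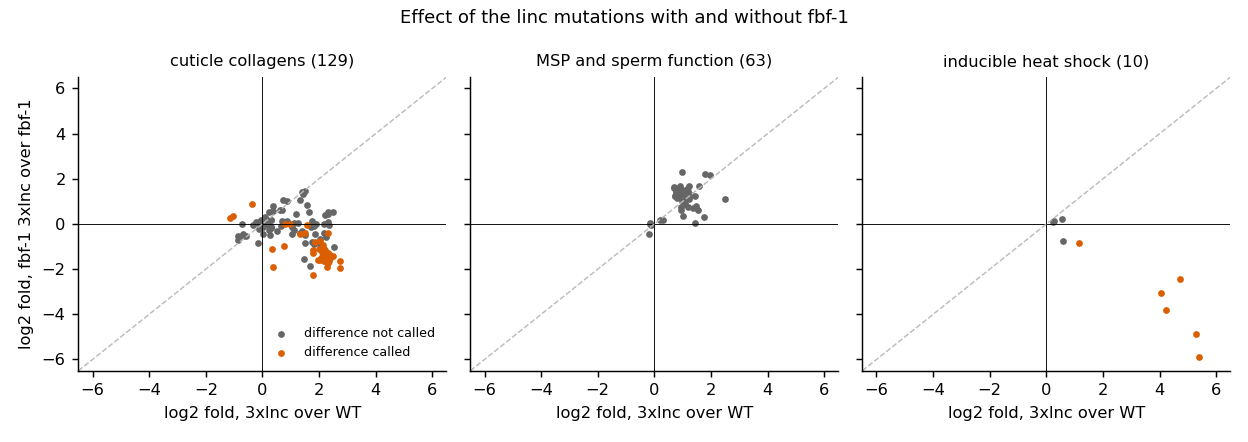
Log2 fold change in the fbf-1 background (fbf-1 3xlnc over fbf-1) against that in the wild-type background (3xlnc over WT) for collagens (129), major sperm protein and sperm function genes (63) and inducible heat shock genes (10). Each point is a gene, the dashed line marks equal effects, and orange points are genes whose difference was called. These sperm genes lie near the line with no orange points, many collagens lie to the right and below 0, and the heat shock genes with the largest rises lie far below the line.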

How the data were processed

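RNA of 6 libraries, 3 of WT and 3 of 3xlnc, was compared, with 6 further libraries of fbf-1 and fbf-1 3xlnc for the difference between backgrounds. The authors deposited whole-number read counts per gene, per the file headers; the submitters' processing notes name STAR 2.7.9a, featureCounts of Subread 2.0.1, DESeq2 1.34.0 and the build WBcel235, with no settings. The sources used here do not state the strand setting or how reads with several matches were treated. Near-identical genes (major sperm proteins, the hsp-16 genes) and antisense pairs are therefore uncertain. From the authors' deposited table, 2 other kinds of value were used: its flags (germline-enriched, FBF-2-bound), and its log2 fold changes and adjusted p-values, by which 1290 genes rose and 494 fell; 1183 and 284 of these were also called here. Another 24 sample columns played no role. Column names gave the sample, or for fbf-1 3xlnc the group only, and 46817 of 46904 identifiers were found in the WBcel235 annotation.

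The test was the quasi-likelihood F test of edgeR 4.0.16 (R 4.3.3; glmQLFit, glmQLFTest) after filterByExpr and TMM scaling, with Benjamini-Hochberg adjustment over all genes tested. CPM is of total counts; each SE belongs to its log2 fold change; floors of 3 counts cover counting error only. An interaction contrast fitted to 12 libraries tested whether the 2 backgrounds differed. The settings varied were the tool (DESeq2 1.42.0, limma-voom of limma 3.58.1), the scaling (RLE, upper quartile), the count filter (2 others), a replicate block, leaving out ribosomal RNA genes, and leaving out each library. Titles share replicate numbers but state no pairing, so the main fit did not pair replicates and the block is an alternative. Correlations of deviations within groups of 3 libraries cannot exclude a shared batch.

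Genes named are the linc genes and called neighbours within 50 kb, the 12 largest rises and falls with a mean of at least 50 counts and no overlap between groups, the 8 with the largest change of CPM in each direction, up to 4 called members per list and direction, the largest non-coding changes, and cell type markers; exceptions are stated. Lists number 46; the members and lists were chosen with earlier results of these data known. A member with too few counts for the filter was not tested, and one that passed through its high group alone would tend to differ, so list counts are descriptions, set beside all genes.

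Tested on simulated data, the 3xlnc procedure recovered, over 13220 tested genes, 33.3, 58.8, 89.4 and 94.1% of those altered by 1.5, 2, 4 and 8 times, with 13 of 150 calls on unchanged genes; the interaction found 24.5, 56.9, 74 and 82.6% among 14544, with 6 of 123. Simulated libraries varied independently, with no outlying library and changes equally likely either way, so these rates need not hold for the real libraries. Every pair of replicates differed by more than sampling noise, with a chi-square of at least 5.83 per degree of freedom. No sequences are shown, since no sequence of the build was used here.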

Additional observations from a re-analysis of the deposited data

Results flagged for a closer look

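The effect of the linc mutations differed between the wild-type and fbf-1 backgrounds in 916 genes, by the interaction test over 12 libraries. Among genes named above, these differences are given as the log2 change in the wild-type background minus that in the fbf-1 background, and background and RNA label cannot be told apart. Heat shock genes had the largest, at 11.25 for hsp-16.41, 10.16 for hsp-16.2 and 7.13 for hsp-70. In cuticle genes the differences were 1.92 for bli-6, 1.57 for col-135, 3.10 for col-48, -1.43 for col-158, 4.03 for rol-6 and 3.24 for grl-16; col-158 had fallen in 3xlnc (log2 -1.16, adjusted p = 0.00887). In germline and embryo genes they were 2.81 for fog-3, 4.96 for the nematode-specific peptide gene nspe-7 (log2 2.86 in 3xlnc), -0.48 for orc-2, -0.43 for egg-3, -0.97 for vet-1, -0.65 for vet-2, -0.94 for vet-6 and -0.87 for sdz-28. In genes of digestion, metabolism and defence they were 1.47 for cpr-4, 1.60 for asp-8, -1.73 for acdh-2, -0.77 for elt-2, -2.94 for sod-3, -1.20 for folt-2, -1.27 for dod-22, -1.16 for dod-24 and 0.76 for clec-48. The remaining ones were 2.67 for the linc-4 neighbour F13H8.5, 0.57 for tni-3, 1.35 for phat-4, 1.45 for plep-1, 3.04 for Y102A5C.36, 4.55 for R08F11.7, 1.97 for tts-2, -2.68 for C16D9.5, -1.61 for T05A12.4, -1.11 for C09B8.4, -1.19 for sax-2 and -1.30 for F46F2.3. Groups of 3 libraries were too small for a test of single outlying libraries.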

How the results depend on the processing

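Of 91 named genes that were called, none was called or fitted in the other direction under any alternative run. Their calls were lost for 1 gene with DESeq2, 1 with limma-voom, 4 with no count filter, 6 under upper-quartile scaling, 7 with the replicate block and 0 to 24 without single libraries. Of 20 named genes that were not called, fbf-1, ges-1, inx-8, dpy-7 and glh-1 went to the other sign or to 0 in some fits, by at most 0.12 on the log2 scale. With DESeq2, 546 genes fell, 13 of them in DNA replication and 167 flagged FBF-2-bound, 14 muscle genes rose, and 583 differences between backgrounds were negative. Under upper-quartile scaling 145 genes fell, 0 in replication and 25 flagged FBF-2-bound, and 14 muscle genes rose; with no count filter 19 muscle genes rose and 2 replication genes fell. Leaving out 1 library at a time gave 361 to 2439 rises and 34 to 2325 falls, 339 to 1193 positive and 201 to 1570 negative differences between backgrounds, 2 to 8 linc neighbours higher, 42 to 84 collagens, 3 to 27 major sperm proteins, 9 to 26 sperm function genes, 2 to 21 muscle genes and 4 to 7 heat shock genes higher, and 0 to 29 replication genes, 0 to 6 early zygotic genes and 5 to 909 FBF-2-bound genes lower. The cause was not tested; these fits have fewer libraries. The labels give same-numbered WT and 3xlnc libraries no more than a shared number, and correlations of their deviations were 0.000347, 0.0519 and -0.0594. Replicate 1 of each group had the most ribosomal RNA and the lowest total of its group, and whether these libraries shared a preparation was not tested. With the replicate block 973 genes rose and 136 fell, 0 of them in replication and 31 flagged FBF-2-bound. No block was fitted between backgrounds, because the fbf-1 3xlnc columns could not be matched to single samples. At the depth of 3xlnc replicate 1, 3 counts are 0.173 CPM, and 0.331 CPM in WT replicate 1, which limits the lowest genes.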

Other observations

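Gene classes outside the lists, looked up by name after the values were seen and given with no test, showed further rises, to be read beside the 9.41% of all genes that rose. The abu genes, named for activation when the unfolded protein response is blocked and linked to the pharyngeal cuticle, had 7 rises among 10 tested (70%, median log2 1.53). The pqn genes, whose products are rich in glutamine and asparagine, had 12 among 50 (24%, median 0.15). The neprilysin-like peptidase genes (nep) had 6 among 19 (31.6%), the oac acyltransferase genes 5 among 20 (25%) and the pgp transporter genes 4 among 13 (30.8%), with no falls in any of these classes by edgeR. Of the 1304 genes that rose 721 have no gene-class name, and 264 belong to any of the lists described; of the 292 that fell these numbers are 121 and 54.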
